A study of Mus musculus with 2 samples.

Results

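Exonic open regions away from transcription start sites (TSSs) were stretches of accessible chromatin whose midpoint lay in an exon of a protein-coding gene, over 1 kb from the start of any annotated transcript. They were taken from DNase-seq of 2 biological replicates of the urinary bladder, 1 library each. The mice were females aged 4 days, of strain B6CASTF1/J, which is the F1 hybrid of C57BL/6J and CAST/EiJ. The labels give no treatment, mutation or second condition, so these libraries form a single group, and the differences reported here lie between places in the genome and not between conditions. The labels number the females separately but give both the same donor identifier, so part of the spread between replicates may be technical. Merging all peaks that overlapped gave 156575 regions, and 53490 of these held a peak of each replicate (34.2%). Of the 53490 regions, 2070 were exonic and over 1 kb from any TSS (3.87%). By the base at their midpoint, 1121 lay in coding sequence, 681 in 3′ untranslated sequence and 268 in other exon sequence. The last group held 39 regions in 5′ untranslated exons and 229 in exons of transcripts that have no coding sequence.

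DNase I cuts DNA that is not wrapped in a nucleosome, and a peak of cuts marks a place where proteins hold the chromatin open. Most such places are promoters, or enhancers and insulators between genes and in introns, but exons can hold them too, and the same bases then encode protein or the tail of a messenger RNA as well as carrying sites for DNA-binding proteins. CTCF is a zinc finger protein that binds a long, strongly conserved DNA motif and forms the borders of chromatin loops together with cohesin. NRF1 is a factor of housekeeping promoters, and AP-1 is a pair of Fos and Jun family proteins that act at enhancers. In bulk tissue, openness in few cells and weak openness in many cells cannot be told apart.

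The sites shown here are the CTCF letters (CCANNAG followed directly by NNGGC, N being any base) found in tall coding and 3′ untranslated regions in which a footprint of each replicate covers the match. A footprint is a short run of bases that are cut less than their surroundings. Each site is printed 5′ to 3′ on the strand that reads the motif, with the matching letters in capitals, from the mouse assembly GRCm38 (mm10). Spi1, Ksr1, Lpar5 and Fam171a2 sites are in coding exons, and the sites of Dand5, Cavin1, Skap2, Frmd8 and Tnfrsf1b are in 3′ untranslated exons.
Spi1, chr2:91115249-91115274, plus strand: tgacctaCCAGAAGATGGCgcgcgcg
Ksr1, chr11:79030663-79030688, plus strand: gtgacggCCAGCAGGGGGCgctgtgt
Lpar5, chr6:125082059-125082084, minus strand: agattggCCAGCAGGAGGCgcacggt
Fam171a2, chr11:102438459-102438484, minus strand: atctgggCCACAAGGGGGCggccgag
Dand5, chr8:84815724-84815749, minus strand: cttttagCCACTAGGTGGCaccgcgt
Cavin1, chr11:100957422-100957447, minus strand: tagggttCCAGCAGGGGGCagcagcg
Skap2, chr6:51858061-51858086, minus strand: taagtggCCAGCAGATGGCagcagct
Frmd8, chr19:5850357-5850382, minus strand: gctgtgaCCAGCAGGGGGCagctgag
Tnfrsf1b, chr4:145214572-145214597, plus strand: ggacgggCCACCAGGGGGCagacgtg

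The next sites are shown because NRF1 letters (GCGCA, any base, then GCGC) were in a larger share of coding regions than of intronic regions or those outside genes, and because AP-1 letters (TGANTCA) inside a footprint of each replicate were rare. These sites were chosen after their values were seen.
Sptbn4, NRF1, coding, chr7:27361591-27361616, minus strand: ttcctgctGCGCAAGCGCgagctcga
Apold1, NRF1, coding, chr6:134983678-134983703, minus strand: gccacttcGCGCAGGCGCagcacttg
Fry, AP-1, coding, chr5:150466379-150466401, plus strand: gattccgaTGAGTCAtccgagga
Ehd2, AP-1, 3′ untranslated, chr7:15948868-15948890, plus strand: cccgagacTGAGTCAgcgcagag

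Per Mb of sequence, open regions were denser in exons than in the rest of the genome away from TSSs. Exon sequence over 1 kb from any TSS held 30.3 regions per Mb, against 13.0 per Mb in introns and 11.2 per Mb outside genes. Coding sequence had the highest density, 44.7 regions per Mb over 25.1 Mb. The 3′ untranslated sequence had 22.1 per Mb over 30.9 Mb, and other exon sequence had 21.6 per Mb over 12.4 Mb. The sequence counted left out undetermined bases and those near a TSS, but kept repeats, where reads may not be placed. Coding regions also lay nearer to a TSS than intronic regions, at medians of 4081 and 8601 bp. The parts of repeats and of distance in these densities were not tested. A region was placed by its midpoint, and a coding region was a median of 240 bp wide, against 200 bp for intronic regions. Regions wholly inside the exon of their midpoint made up 46.3% of coding regions and 92.1% of 3′ untranslated regions. Of all merged regions of each kind, 26.5% of the exonic ones (2070 of 7811, 95% exact binomial interval 25.5 to 27.5) held a peak of each replicate, against 26.1% in introns, 26.0% outside genes and 58.8% within 1 kb of a TSS. Among the exonic classes it was 25.3% in coding, 26.6% in 3′ untranslated and 32.7% in other exon regions (95% interval 29.5 to 36.1). The interval of other exon regions lay above the shares in introns and outside genes. Other exon regions were also nearer to a TSS, at a median of 2460 bp, against 8601 bp in introns and 12797 bp outside genes. The part of this distance was not tested. Regions are not replicates, so these intervals cover counting error only.

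**Figure D1:**
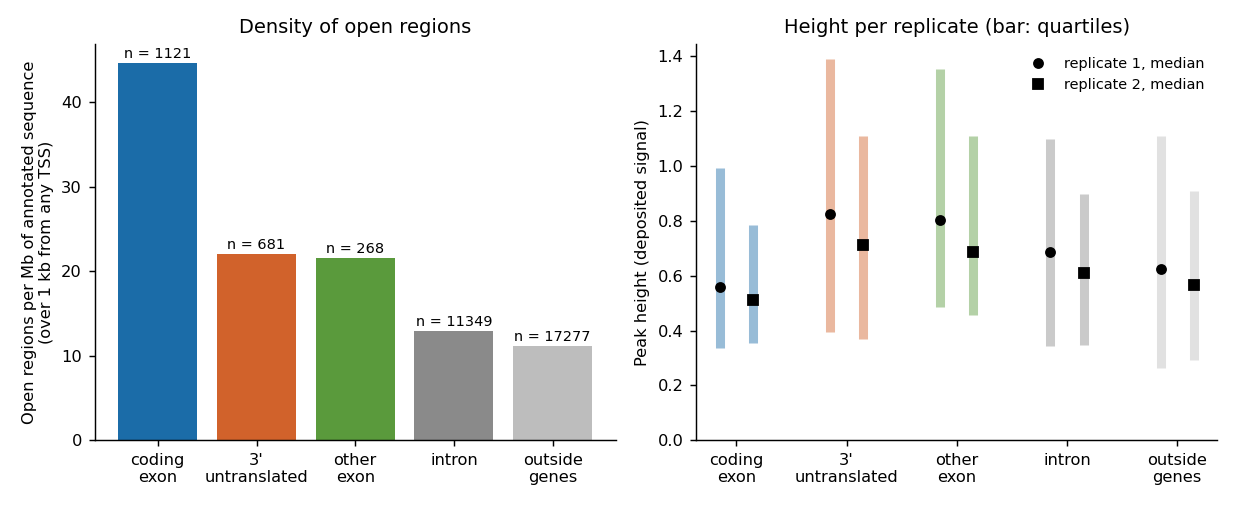
Left, open regions per Mb of annotated sequence over 1 kb from any TSS, with the number of regions above each bar, for 3 exonic classes, introns and sequence outside genes. Right, peak height per replicate in the same classes, with the median as a point and the quartiles as a bar. Coding regions were the densest, at 44.7 per Mb, and had the lowest medians of height, at 0.559 and 0.513.

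Height, the value that the authors deposited for each peak, is a signal that takes whole multiples of a fixed step in each sample, and none of the sources used here gives its scale. Coding regions were low, with a median height of 0.559 in replicate 1 and 0.513 in replicate 2. The 3′ untranslated regions had medians of 0.824 in replicate 1 and 0.713 in replicate 2, and other exon regions had medians of 0.801 in replicate 1 and 0.688 in replicate 2. Intronic regions had 0.684 and 0.609 in replicates 1 and 2, regions outside genes 0.624 and 0.567, and TSS-proximal regions 1.42 and 1.08. In each replicate the order was the same, with 3′ untranslated above other exon, intron, outside genes and coding. The mean of the replicate medians was 0.769 ± 0.0786 in 3′ untranslated and 0.536 ± 0.0325 in coding regions, against 0.647 ± 0.0536 in introns (SD, n = 2). The replicate medians of coding and 3′ untranslated regions did not overlap, while those of 3′ untranslated and other exon regions did. Both heights were over 1 in 15.3% of coding, 30.2% of 3′ untranslated and 28.0% of other exon regions, against 18.7% of intronic regions and 19.8% of those outside genes.

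The 3′ untranslated regions of Cers5, Ubqln1 and Lars2 stood far above all other exonic regions. The region in Cers5, a ceramide synthase gene, was 51.7 high in replicate 1 and 60.6 in replicate 2 (chromosome 15, 99735701 to 99736060, last of 10 exons). The region in Ubqln1, which encodes an adaptor that brings ubiquitinated proteins to the proteasome, had 29.3 and 42.2 (chromosome 13, 58177641 to 58177820). Each of them had 0 other merged regions within 5 kb, and the promoter peaks of the genes were low beside them, at 2.53 and 1.72 for Cers5 and 2.46 and 1.45 for Ubqln1. The region in Lars2, the mitochondrial leucyl-tRNA synthetase gene, had 26.6 and 23.8 (chromosome 9, 123461901 to 123462100), and 59.8% of its 32-base words occurred again in the genome. Reads from copies of a sequence can be placed in 1 of them, and their part in this height was not tested. None of the 32-base words was repeated in the Cers5 and Ubqln1 regions (0% each). The Cers5 region held 0 footprints in replicate 1 and 5 in replicate 2.

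The next tallest 3′ untranslated regions lay in Dand5, an antagonist of Nodal signals in left-right patterning, with 5.83 and 3.49, in Rtn2, a reticulon of the endoplasmic reticulum, with 5.10 and 3.46, and in Prss22, a serine protease gene, with 4.58 and 3.43. Each had a footprint in both replicates. Among coding regions the tallest was in the predicted gene Gm11168, with 10.4 and 4.10, but all of its 32-base words were repeated (100%, median of 87 copies). Angptl6, an angiopoietin-like secreted protein gene, followed with 7.83 and 4.87 in exon 2 of 6 (chromosome 9, 20878141 to 20878480). Sptbn4, the beta spectrin of axon initial segments, had 6.69 and 4.58 in exon 33 of 36, at the NRF1 letters printed above. Ccdc194 had 5.48 and 3.86, Spi1 5.06 and 3.34, and Rsad1 4.24 and 3.62. In each of these coding regions replicate 1 was higher. Exon bases made up 40% of the Rsad1 region, 51.8% of that of Sptbn4, 56.7% of that of Ccdc194 and 64.5% of that of Gm11168. The Angptl6 and Spi1 regions were wholly exonic (100%). The tallest other exon regions were those of Pura, a single-stranded nucleic acid binding protein gene, with 4.19 and 3.54, Rap2b, a small GTPase gene, with 3.73 and 3.64, Nup160, of the nuclear pore, with 4.13 and 3.14, and Mpp6, with 3.56 and 3.49.

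**Figure D2:**
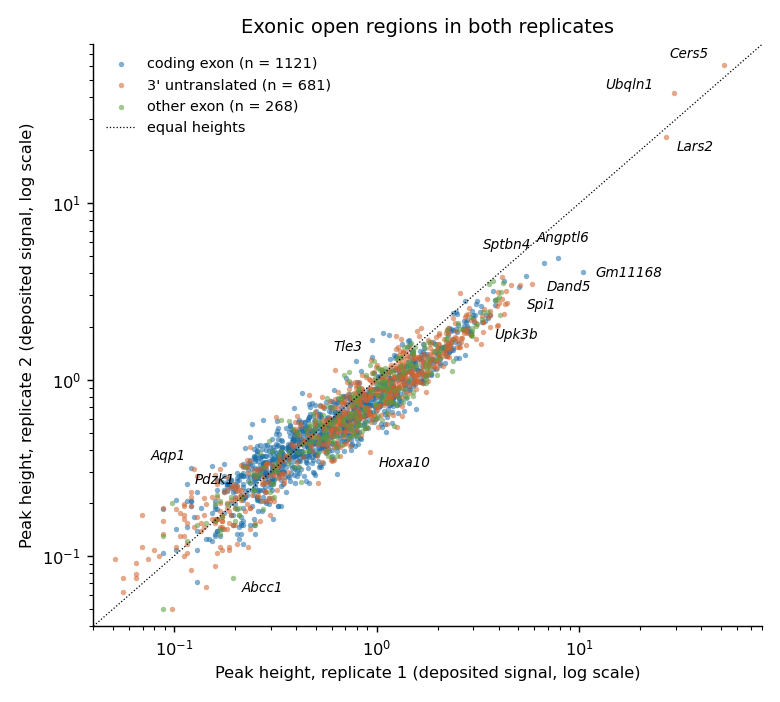
Peak height of each exonic open region in replicate 1 (horizontal, log scale) and replicate 2 (vertical, log scale), coloured by class, with the line of equal heights dotted. Cers5, Ubqln1 and Lars2 stand apart at 23.8 or more in each replicate, and the taller regions mostly lie below the line.

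The replicates ranked the exonic regions alike. Across the 2070 regions, log2 heights had a Pearson correlation of 0.949 and heights a Spearman correlation of 0.949, a description over regions that share the same pair of libraries. The median log2 ratio of replicate 2 over replicate 1 was -0.20 in exonic regions and -0.28 in all 53490 regions. After centring on the median of all regions, 40 exonic regions were more than doubled in replicate 2, a log2 ratio over 1, where 2.16% of all regions were. Only 2 had a centred ratio under -1, where 0.131% of all regions did. The 5 with the largest ratios were low regions. Pdzk1, a scaffold protein gene of epithelial transporters, had 0.317 in replicate 2 and 0.121 in replicate 1 (centred log2 ratio 1.67), and Aqp1, a water channel gene, had 0.313 and 0.126 in the same order (1.60). Olfr157, an olfactory receptor gene, had 0.171 and 0.0698 (1.57), an exon that Ugt1a7c shares with other Ugt1a glucuronosyltransferase genes 0.563 and 0.242 (1.50), and Wwc2 0.254 and 0.116 (1.41). Each of these regions had at least 12 other merged regions within 5 kb. The ratios under -1 were those of Abcc1, an export pump gene, with 0.0750 in replicate 2 and 0.196 in replicate 1 (-1.10), and Gm11168 (-1.06), both in repeated sequence. Hoxa10 followed with 0.388 in replicate 2 and 0.922 in replicate 1 (-0.97), then Gm4981 (-0.94) and Sp6 (-0.91). With 1 library on each side these differences have no replicate check.

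Along the host transcript, coding regions were spread over its length. The 3′ untranslated regions lay at its end, where the rule places them because such sequence ends a transcript. The midpoint lay at a median of 73.3% of the way from transcript start to end in coding regions (quartiles 44.0% and 91.6%) and of 96.8% in 3′ untranslated regions (90.5% and 98.9%). Internal exons held 56.9% of coding regions, last exons 34.3%, first exons 3.93% and single-exon transcripts 4.91%. The rule itself keeps out the sequence next to each TSS, where first exons begin. Last exons had the taller coding regions, with medians of 0.691 in replicate 1 and 0.573 in replicate 2, against 0.470 and 0.471 in internal exons. Density differed with the length of the coding stretch. Stretches of at most 150 bp had 25.8 coding regions per Mb, those of 150 to 500 bp 48.0, those of 500 to 1000 bp 88.2 and those over 1000 bp 51.9. Host exons over 500 bp, with their untranslated parts counted, held 50.8% of coding regions. By coding stretch alone, those of 500 to 1000 bp held 19.4% of coding regions and those over 1000 bp 19.8%. The median coding exon part, without untranslated sequence, was 122 bp long.

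**Figure D3:**
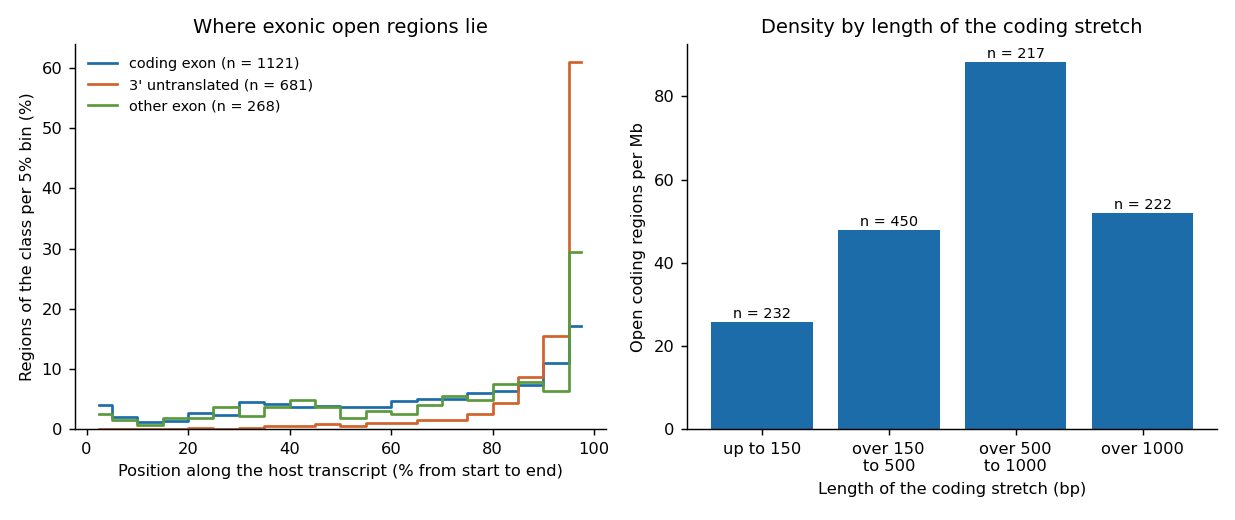
Left, share of each exonic class by position of the midpoint along the host transcript, in bins of 5% from start to end. Right, coding open regions per Mb by length of the unbroken coding stretch, with the number of regions above each bar. The 3′ untranslated class peaks in the last bin, where the annotation puts such sequence. The density reaches 88.2 per Mb in stretches of over 500 to 1000 bp.

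Coding regions were rich in G and C. The median GC content was 59.1% in coding, 54.6% in 3′ untranslated and 54.5% in other exon regions, against 53.3% in introns and 52.9% outside genes. CpG dinucleotides numbered 3.89 per 100 bp in coding and 1.83 in 3′ untranslated regions, against 1.67 in introns and 7.71 in TSS-proximal regions. CpG content moved with distance from a TSS, and the part of distance was not tested. Exonic regions in the first distance bin beyond the 1 kb limit had a median of 5.42 CpG per 100 bp. Those in the bin just below the limit, which the rule leaves out, had 5.43. Exonic regions at 1500 to 2000 bp had a median of 3.70 CpG per 100 bp, and those beyond 10000 bp had 2.62. From bin to bin the fall was not steady. Heights just inside and just outside the 1 kb limit overlapped. Just inside it, the regions of Tent4b, Ddit4 and Hist1h1c lay at 1003 bp, with heights of 0.591 and 0.471, 1.69 and 0.951, and 2.04 and 1.78 in replicates 1 and 2. Just outside it, regions at 997, 995 and 990 bp had 1.51 and 0.942, 2.81 and 1.94, and 0.987 and 0.717. In the central 150 bp of coding open regions the median GC content was 60%, against 52% in coding exon windows of 150 bp without a peak. The same medians for 3′ untranslated sequence were 55.3% in open regions and 44% in windows without a peak.

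Footprints lay in most exonic regions. A footprint of each replicate was present in 1594 of the 2070 (77.0%), where 79.2% of all 53490 regions had one, so exonic regions were close to the background. The share was 74.5% in coding, 78.6% in 3′ untranslated and 83.6% in other exon regions, against 76.5% in introns and 73.3% outside genes. In coding regions 83.6% of footprint bases in replicate 1 and 84.2% in replicate 2 were coding bases, where 74.7% of all bases in those regions were. The rule places coding bases at the centre of these regions, so the difference is a description and shows nothing about exon against intron. Footprints and peaks come from the same libraries. The share of exonic regions with a footprint of each replicate was 39.7% in the lowest quartile of height and 98.6% in the tallest, and the part of height in these shares was not tested.

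CTCF letters were frequent in exonic open regions and rare in exon sequence without a peak. They occurred in the central 150 bp of 305 exonic regions (14.7%), where 17.0% of all regions over 1 kb from a TSS had them. The share was 21.3% in 3′ untranslated regions (145, 95% exact binomial interval 18.3 to 24.6), 18.7% in other exon regions (50, 14.2 to 23.8) and 9.81% in coding regions (110, 8.13 to 11.7), against 18.1% in introns and 16.6% outside genes. In exon windows of the same length without a peak the letters were rare, at 0.77% of 19916 windows in 3′ untranslated and 1.13% of 48291 windows in coding sequence. Both strands were searched for this motif and for all others. A match is a description of letters and not a measured binding site.

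Regions with CTCF letters were the taller ones. In coding exons the medians were 1.19 in replicate 1 and 0.873 in replicate 2 with the letters, against 0.517 and 0.488 without them. In 3′ untranslated exons they were 1.29 and 1.04 with the letters, against 0.719 and 0.607 without. Only the central 150 bp was searched, which itself keeps matches near the midpoint. Within it, CTCF matches lay a median of 11.5 bp from the midpoint in coding and 8 bp in 3′ untranslated exons. AP-1 matches in the same windows lay at 43 and 33 bp. A footprint of each replicate covered 90 of 112 matches in coding and 137 of 149 in 3′ untranslated exons. Of the coding matches, 108 lay on coding bases themselves, and 46 of the 112 ran on the strand of the gene. CTCF letters were also compared at like heights. In the tallest quartile of all regions over 1 kb from a TSS, with a mean height over 1.00, CTCF letters were in 25.0% of 232 coding and 34.3% of 251 3′ untranslated regions, against 35.2% of intronic ones.

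Spi1, which encodes PU.1, the master factor of myeloid cells, had the tallest coding region with CTCF letters in a footprint of each replicate, at 5.06 in replicate 1 and 3.34 in replicate 2 (chromosome 2, 91115161 to 91115320, last of 5 exons). Its promoter had a peak in neither replicate, and it was the sole gene of the immune list with an exonic region. Ksr1, a scaffold of the Ras and MAP kinase pathway, had 3.14 and 2.77, and 29% of the bases of its region were exonic. Epg5, an autophagy gene whose site is not printed here, had 3.30 and 2.13, the lysophosphatidic acid receptor gene Lpar5 had 3.06 and 2.31, and Fam171a2 had 2.99 and 2.23. Among 3′ untranslated regions, Dand5 was followed by Cavin1, which encodes a coat protein of caveolae, with 4.38 and 2.73. Skap2, an adaptor of Src family kinases, had 3.96 and 3.13, Frmd8 had 4.27 and 2.69, and the tumour necrosis factor receptor gene Tnfrsf1b had 4.02 and 2.72. All of these were higher in replicate 1.

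NRF1 letters were more frequent in coding than in intronic regions, a difference that was not tested. They were in 2.14% of coding regions (24), against 0.33% of intronic ones, 0.12% of coding windows without a peak and 5.36% of TSS-proximal regions. The letters hold CpG dinucleotides, of which coding regions had a median of 3.89 per 100 bp, against 1.67 in intronic regions. The part of base composition in this and in the other motif shares was not tested. Coding regions with NRF1 letters had median heights of 1.22 and 0.957, against 0.540 and 0.509 without, and all 24 held a footprint of each replicate (100%). The share was 73.9% in coding regions without the letters and 79.2% in all regions. In coding regions of the tallest quartile of height it was 97.4%, and the part of height was not tested. The footprints of each replicate covered the letters themselves in 10 of 25 matches. Sptbn4, Ccdc194 and the actin-binding protein gene Synpo, with 3.24 and 2.41, carried them, as did Apold1 with 2.82 and 1.87. SP letters (GGGCGGG) were in 5.08% of coding and 5.87% of 3′ untranslated regions, against 5.61% of intronic regions and 1.04% of exon windows of each kind. ETS letters (CCGGAAG) were in 3.30% of coding regions, against 1.24% of intronic ones and 2.20% of coding windows without a peak.

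AP-1 letters were about as frequent in exonic open regions as in exon windows without a peak. They were in 3.21% of coding and 3.96% of 3′ untranslated regions, against 6.20% of intronic regions and 5.66% of those outside genes. Coding windows without a peak had 3.01%, and 3′ untranslated ones 4.31%. A footprint of each replicate covered 5 of 37 matches in coding, 1 of 28 in 3′ untranslated and 1 of 17 in other exon regions. The 5 coding sites lay in Fry, at 1.69 and 1.43, Prox2, at 1.21 and 0.801, Fam83a, at 1.08 and 0.909, Adcy4, at 0.577 and 0.613, and BC067074, at 0.247 and 0.267. The 3′ untranslated site lay in Ehd2, whose protein sits at the neck of caveolae, at 2.21 and 1.92. The E-box CAGCTG was common in coding sequence with or without a peak, at 18.6% of coding regions, against 14.2% of windows without a peak and 15.7% of intronic regions. Posterior HOX letters (TTTATNG) were in 1.78% of coding and 4.11% of 3′ untranslated regions, against 3.62% and 9.09% of the windows without a peak of each kind. These windows had a lower GC content than the open regions, and its part in the shares was not tested.

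**Figure D4:**
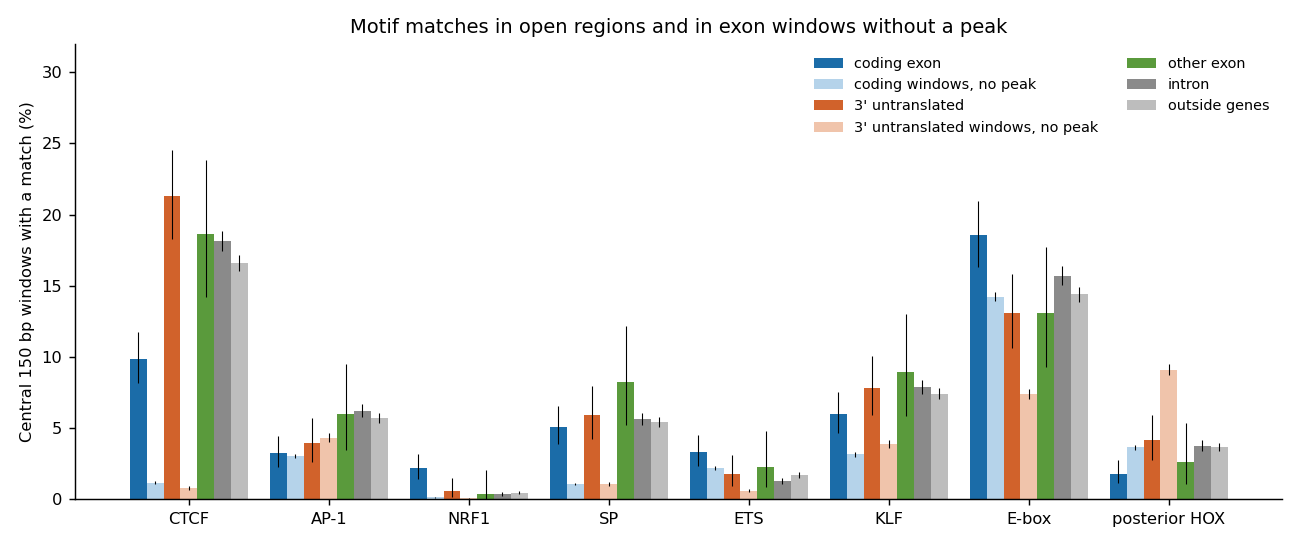
Share of central 150 bp windows with a match to each motif on either strand, in percent, for open regions of 3 exonic classes, exon windows without a peak, introns and sequence outside genes, with 95% exact binomial intervals. CTCF reaches 21.3% in 3′ untranslated and 9.81% in coding regions, against 0.77% and 1.13% in the windows without a peak.

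The stricter peak lists held 1083 exonic regions in both replicates (52.3%), where 61.7% of all regions were held, with 46.9% of coding, 60.1% of 3′ untranslated and 55.2% of other exon regions. This share did not follow height. The lowest exonic regions had many neighbours and the taller ones few. With all regions over 1 kb from a TSS cut into quartiles of mean height, 383 exonic regions lay in the lowest quartile, at 0.305 or less, and 70.8% of them were in the stricter lists of both replicates. They had a median of 13 other merged regions within 5 kb, a footprint of each replicate in 39.7% and CTCF letters in 0.783%. In the next quartile, 637 exonic regions had 16.6% in the stricter lists and a median of 2 neighbours. The tallest quartile held 578, of which 93.1% were in the stricter lists, 98.6% had a footprint of each replicate and 29.9% had CTCF letters, with a median of 1 neighbour. Intronic regions had the same form, with 69.7%, 9.08%, 38.6% and 94.8% in the stricter lists from the lowest quartile to the tallest.

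**Figure D5:**
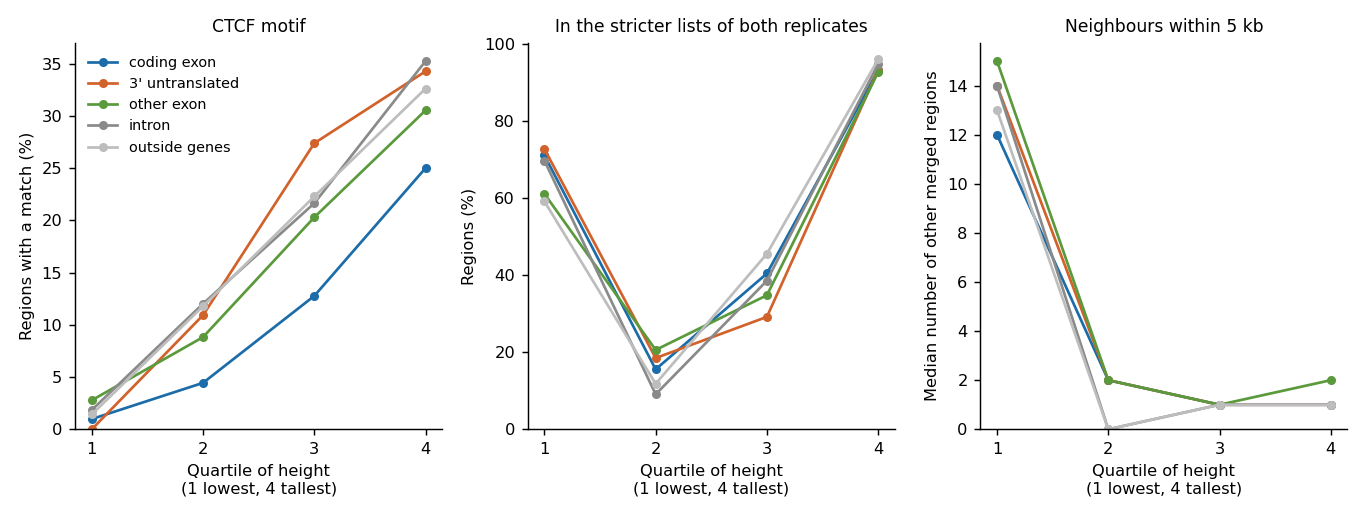
Share with CTCF letters (left), share in the stricter lists of both replicates (middle) and median number of other merged regions within 5 kb (right), by quartile of height from the lowest to the tallest, for 3 exonic classes, introns and sequence outside genes. In the lowest quartile 70.8% of exonic regions were in the stricter lists, beside a median of 13 neighbours.

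The gene with most exonic regions had low, crowded ones. Plekhb2 had 8, of which 7 were 3′ untranslated, with heights between 0.102 and 0.405 in replicate 1 and between 0.104 and 0.304 in replicate 2, and 1 of the 8 had a footprint of each replicate. Each had 21 to 23 other merged regions within 5 kb. Tns1, which encodes tensin at focal adhesions, had 7, with 5 in its 3′ untranslated exons, between 0.270 and 1.42 and between 0.254 and 0.796. Itgb2l, an integrin beta chain gene, had 7 between 0.130 and 0.261 and between 0.0667 and 0.288. A further 10 genes had 6 each. Of these, Fcgbp, a mucus protein gene, had 6, all coding, and Mxd4, which encodes a repressor that pairs with MAX, had 6, all in exons of transcripts without coding sequence. Neighbouring regions of 1 gene are not independent. By chromosome, the exonic share of regions with a peak of each replicate ran between 2.66% on chromosome 12 and 5.24% on chromosome 7. In all, 1624 protein-coding genes had an exonic region, 7.41% of the 21924 symbols tested. Of these 1326 had 1, 208 had 2 and 90 had 3 or more. For 20 exonic regions the midpoint lay in exons of more than 1 gene.

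Most host genes had an open promoter. A promoter peak, within 500 bp of a TSS, was present in each replicate at 1234 of the 1624 genes (76.0%), where 62.3% of all protein-coding genes had one. The share was 72.9% for genes with coding regions, 79.2% for those with 3′ untranslated regions and 84.7% for those with other exon regions. Where the promoter was open in both replicates, the exonic region was taller than the promoter in both in 211 cases (13.0%). A further 318 exonic regions, in 272 genes, lay in genes without a promoter peak in either replicate. They had medians of 0.796 and 0.665, against 0.647 and 0.563 where the promoter was open in both. CTCF letters were in 29.3% of the 82 such 3′ untranslated regions and 12.9% of the 210 coding ones, against 20.2% and 9.62% where the promoter was open. Of the 26 such other exon regions 15.4% had them, against 18.5% where the promoter was open. These shares were not tested. Angptl6, Ccdc194, Spi1, Dand5, Lpar5, Rap2b and Nup160, described above, were of this kind. CpG dinucleotides numbered 12.6 per 100 bp in the Angptl6 region, 12.3 in that of Nup160 and 10.4 in that of Rap2b. These values were above the median of 7.71 in TSS-proximal regions, and those of Spi1, Lpar5, Ccdc194 and Dand5 were below it. Whether any of these regions is itself a promoter without an annotated start was not tested.

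Exonic regions were counted in genes of the bladder's cell types. To set the tissue label beside its markers, promoter peaks in each replicate were counted, which 62.3% of all protein-coding genes had. They were present at 18 of 21 smooth muscle, 20 of 21 fibroblast and mesenchyme and 11 of 22 urothelial genes. Endothelial genes had one at 8 of 15, immune genes at 4 of 14 and peripheral glia and neuron genes at 6 of 14. Apart from the smooth muscle and fibroblast lists, these shares were below that over all genes. Of genes of other tissues, 0 of 8 hepatocyte and 4 of 12 central nervous system genes had one. Exonic regions were present at none of the 21 smooth muscle genes (0) and at 1 of 21 fibroblast genes. That was Vim, the intermediate filament of mesenchyme, with 1.76 and 1.05. Of the urothelial list, 6 of 22 genes had 1 or more. Upk3b, a uroplakin gene, had a pair of 3′ untranslated regions, of 3.34 and 2.11 and of 0.745 and 0.763, with no promoter peak in either replicate. Pparg, a nuclear receptor of urothelial differentiation, had a coding region of 1.45 and 0.980, and Elf3, an epithelial ETS factor, one of 1.23 and 0.826. Klf5, Krt20 and Krt5 had coding regions of 0.563 and 0.530, 0.489 and 0.500, and 0.256 and 0.396, and Krt20 had no promoter peak in either replicate. No list was tested, and the share over all protein-coding genes was 7.41%.

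Of the endothelial list, 5 of 15 genes had an exonic region (33.3%), where 7.41% of all protein-coding genes had one. The tallest was that of the VEGF receptor gene Flt1 with 1.31 and 1.35, in an exon of a transcript without coding sequence. Eng, a co-receptor of TGF-beta family ligands, had 0.955 and 0.655, and Kdr, the main VEGF receptor gene of endothelium, had 0.740 and 0.559 in its 3′ untranslated exon. Sox17 and Cdh5 had 2 regions each, of 0.492 or less in either replicate. Of the immune list, Spi1 was the 1 of 14. Of the peripheral glia and neuron list, 3 of 14 had one, among them Gfap, an astrocyte and glial filament gene, at 1.35 and 1.05 and Chat, the gene of the enzyme that makes acetylcholine, at up to 0.210 and 0.171.

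The immediate early genes, which respond fast to stimuli and stress, had exonic regions at 7 of 19 (36.8%), all with an open promoter. Over all protein-coding genes the share was 7.41%, and no list was tested. The heights of these exonic regions were below those of the promoters. Ier2 had 1.96 and 1.73 in its 3′ untranslated sequence, against promoter peaks of 3.86 and 2.88. Jun had 1.78 and 1.68, against 5.83 and 4.39 at the promoter. Klf4 had 1.63 and 1.11 and Fosb 1.50 and 1.31, while Junb, Klf6 and Myc had 1.04 and 0.746, 0.680 and 0.796, and 0.368 and 0.413. Their regions lay between 1044 bp (Junb) and 5405 bp (Klf6) from a TSS. Of the 39 Hox genes, 5 (12.8%) had 8 regions, 7 of them 3′ untranslated, with Hoxa10 the tallest at 0.922 and 0.388. Hoxa7, Hoxa11 and Hoxd12 had 2 each, and Hoxd3 had 1.

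Genes of other tissues also held exonic regions, at 1 of 8 hepatocyte (12.5%) and 2 of 12 central nervous system genes (16.7%). Both shares were above the 7.41% over all protein-coding genes. They were also above those of the smooth muscle (0%), fibroblast (4.76%) and immune (7.14%) lists. Those of the urothelial (27.3%), endothelial (33.3%) and peripheral glia and neuron (21.4%) lists were higher. Apoa1, a lipoprotein gene of the liver, had a coding region of 1.77 and 1.35 that carried CTCF letters, and its promoter had no peak in either replicate. Rbfox3, the neuronal splicing factor known as NeuN, had a 3′ untranslated region of 2.69 and 1.83, and Neurog2, a neural basic helix-loop-helix factor, a coding one of 1.57 and 1.13, both without a promoter peak. Among regulators of transcription, 6 of 21 corepressor and coactivator genes had one (28.6%), where 7.41% of all protein-coding genes did. Tle3, a Groucho family corepressor, was the tallest at 0.922 and 1.20, and the regions of Crebbp, Ctbp2, Ncoa1, Sin3b and Tle1 were 0.438 or less in replicate 1 and 0.513 or less in replicate 2. Of the 394 genes named Zfp, 21 had one (5.33%, below the share over all genes), the tallest being Zfp503 with 3.83 and 2.84. Of 44 collagen genes 6 had one (13.6%), led by Col4a3 of basement membranes at 2.13 and 1.52. Of 68 protocadherin genes 8 had one (11.8%), led by Pcdh1 at 1.61 and 0.984.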

How the data were processed

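DNase-seq was measured in 1 group of 2 samples. The height of a peak is the signal that the authors deposited for each peak of each sample. The deposited p-value of the cut-rate lists is a false discovery rate per stretch of bases, and no value of it is reported here. The looser peak list of each sample was taken as the longer of its 2 lists. The p-value column of the deposited footprint lists holds a constant. Peaks, rates and footprints were derived from each sample's own filtered alignments on assembly mm10, per the labels and the file descriptions. Which aligner and callers were used, with which versions and thresholds, is not given in the sources used.

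The looser lists held 96518 peaks in replicate 1 and 122870 in replicate 2, the stricter lists 61623 and 77545, and the footprint lists 217816 and 189794. Every height was a whole multiple of 1 step per sample (100%, tolerance 0.02 steps), 0.00466 in replicate 1 and 0.00417 in replicate 2. Total read depth is unknown.

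Overlapping looser peaks (at least 1 bp) were merged, and regions with a peak of each replicate were kept, with the tallest peak as the height. Midpoints were placed with GENCODE M21 on GRCm38.p6, as coding before 3′ untranslated before other exon, then intron, then outside protein-coding genes. Words of 32 bases were counted in the genome on both strands, and a region with over 50% repeated was called repeated. Motifs were consensus strings, 23 in all, in the central 150 bp. Shares carry 95% exact binomial intervals. No test was made, because the labels give a single group. The text names the tallest regions of each class, of each of 14 gene lists and with CTCF letters in footprints, 5 genes with most regions (the last 2 from a tie of 10), and the largest differences between replicates. Other list genes and the NRF1 and AP-1 sites were chosen after their values were seen. The values of 1 listed gene are not reported here. The members and lists were chosen with earlier results of these data known.

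Python 3.11.15, numpy 2.4.6, pandas 2.3.3, scipy 1.17.1, numba 0.67.0 and matplotlib 3.10.9 were used, and the placing, merging and motif search were tested on simulated data.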

Additional observations from a re-analysis of the deposited data

How the results depend on the processing

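No paired analysis was possible because the replicates form a single group. Of 87 recomputed values, 51 stayed within their limit (1.5 times for a count, 1 SD or the 95% interval otherwise) and 36 moved. In the stricter lists 1110 exonic regions were left (545 coding, 412 3′ untranslated, 153 other), 3.33% of all, with a median height of 0.969, a footprint of each replicate in 82.1%, CTCF letters in 18.6% and 24.0% of merged regions found in both replicates. In the looser lists 25.5% were found in both when peaks had to overlap by at least 50%. With replicate 2 or 1 alone, between 4382 and 5728 exonic regions were found (2397 to 3300 coding, 1489 to 1822 3′ untranslated, 496 to 606 other), 4.69% to 4.76% of all, with medians of 0.329 to 0.400, footprints in 66.2% to 72.5% and CTCF letters in 6.74% to 8.35%. The share found in both replicates has no value with 1 replicate. At over 500 bp from a TSS, 448 other exon regions, 5.06% of all, CTCF letters in 12.7% and 28.6% found in both were obtained. At over 2 kb these were 156 other exon regions, 2.91% of all and 24.9% found in both. With protein-coding TSSs alone the share of all regions was 4.12%. With exons of protein-coding transcripts alone 40 other exon regions were left and the share was 3.40%. Leaving out regions of repeated sequence, an alternative chosen after seeing the data, moved no value past its limit. The causes were not tested. Height has no stated scale, depth is unknown, and each region was placed by its midpoint alone.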
